A study of Rattus norvegicus with 6 samples.

Results

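The liver-type miRNAs miR-122, miR-192 and miR-194 were examined in small RNA libraries of RSC96, a rat Schwann cell line. Every listed sequence was taken whose hairpin name, without a trailing copy number, was rno-mir-122, rno-mir-192 or rno-mir-194. They were 3 of 752 hairpin families, and their reads came from 4 of 821 hairpins and fell on 4 of 932 mature arms. The tested cells were kept in high glucose for 48 h and the control cells in low glucose for 48 h, with 3 libraries in each group. The labels give no glucose concentration, and they do not say whether the RNA came from whole cells or from the exosomes named in the series title. They give the tissue as nerve, while the text on RNA extraction speaks of retinas. The miRNAs were chosen by their arm counts in these same libraries, with their rise in high glucose already known, so their levels and fold changes are given as a description, without a test. IsomiRs are the forms in which a miRNA was read, which share an arm but differ in their ends or in a base. They were not used in that choice, and their shares within the arm were tested. These shares are made of the same counts as the arm levels, so they are not fully independent of the choice.

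miR-122 is the dominant miRNA of hepatocytes, where it is known for its part in cholesterol and lipid metabolism, and its release into blood is used as a sign of liver injury. miR-192 and miR-194 are found in liver, kidney and intestine and are made from shared primary transcripts, and miR-215 has the same seed as miR-192. A seed is the stretch near the 5′ end by which a miRNA pairs with its target mRNAs. None of the 3 is known as a Schwann cell marker. Schwann cell marker genes are mRNAs, so the labelled cell type could not be checked against them in small RNA counts.

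The RefSeq mature sequences of the members and of miR-215 are shown with the seed, bases 2 to 8, in capitals, since they define which reads could belong to each miRNA.
miR-122-5p: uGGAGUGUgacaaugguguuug
miR-122-3p: aACGCCAUcaucacacuaa
miR-192-5p: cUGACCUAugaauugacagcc
miR-192-3p: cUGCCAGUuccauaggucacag
miR-194-5p: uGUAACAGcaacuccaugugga
miR-194-3p: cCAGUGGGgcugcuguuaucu
miR-215: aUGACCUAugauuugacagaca
The seeds of miR-122-5p and miR-194-5p are their own, and the seed UGACCUA is common to miR-192-5p and miR-215. The 4 member hairpins in the files are letter for letter those of RefSeq. In its GRCr8 build the miR-122 hairpin lies at chr18:61028817-61028901 on the plus strand, where it overlaps a transcribed pseudogene, LOC134482951, and, on the other strand, the hairpin of miR-3591, of which the files list no sequence. The hairpin of miR-194-2, at chr1:212994024-212994108, and that of miR-192, at chr1:212994209-212994318, lie 100 bases apart on the plus strand and overlap no other annotated gene. The hairpin of miR-194-1, at chr13:99382716-99382798, and that of miR-215 lie 191 bases apart within Iars2, the gene of a mitochondrial tRNA synthetase.

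The reads of miR-122-5p took a small number of main forms. The 21 nt form begins at position 15 of the 85 nt hairpin and ends at position 35, so it is shorter by 1 base than the RefSeq sequence. The capitals mark the bases beyond it.
miR-122-5p, 19 nt: tggagtgtgacaatggtgt
miR-122-5p, 21 nt: tggagtgtgacaatggtgttt
miR-122-5p, 22 nt: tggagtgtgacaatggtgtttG
miR-122-5p, 23 nt, A-ended: tggagtgtgacaatggtgtttGA
miR-122-5p, 23 nt, templated: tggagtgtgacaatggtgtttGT
The A-ended form carries the substitution T23A, counted from its 5′ end with the hairpin's base first, so its last base is not in the hairpin. For miR-192-5p the forms shown end at positions 44 to 46 of the 110 nt hairpin. The capitals mark the bases beyond its 21 nt form, and in the shifted form, which begins 1 base later, they mark the seed.
miR-192-5p, 21 nt: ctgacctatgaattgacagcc
miR-192-5p, 22 nt: ctgacctatgaattgacagccA
miR-192-5p, 23 nt, T-ended: ctgacctatgaattgacagccAT
miR-192-5p, shifted start: tGACCTATgaattgacagccag
The T-ended form carries G23T, again a base that the hairpin does not have.

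Depth here means the sum of a library's listed counts, not of all reads sequenced. It was 963706, 1278405 and 1354456 in high glucose, against 123716, 148143 and 114615 in low glucose, a 9.31-fold difference between the group means. Depth therefore differs between the groups as the glucose does, and the 2 cannot be told apart. Raw counts are given beside CPM, counts scaled to a common library total by edgeR's TMM method. In bulk RNA, fewer cells with a miRNA and less of it in each cell cannot be told apart.

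miR-122-5p was an abundant miRNA in these libraries and stood higher in high glucose. It had 8220, 18051 and 16319 raw counts in high glucose, against 461, 448 and 482 in low glucose. It ranked 24th, 15th and 19th among the arms of the high glucose libraries and 30th, 34th and 28th among those of the low glucose libraries. After scaling it stood at 8489.9, 14709 and 13324 CPM in high glucose, against 3203, 2996 and 4308 CPM in low glucose. All high glucose libraries lay above all low glucose libraries, as they did in 45.8% of the 297 tested arms. High glucose replicate 1 was the lowest of its group. The means were 12174 ± 3265 CPM in high glucose, against 3502 ± 705 CPM in low glucose (SD, n = 3 per group). The edgeR fit gave a 3.48-fold difference, with a log2 fold change of 1.80 (SE 0.25). The raw counts differed 30.6-fold.

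miR-192-5p had the same pattern at a lower level. It had 654, 1018 and 935 raw counts in high glucose, against 26, 29 and 38 in low glucose. That made 675, 829.5 and 763 CPM in high glucose, against 181, 193.9 and 339.6 CPM in low glucose. All high glucose libraries again lay above all low glucose libraries, as in 45.8% of tested arms. Low glucose replicate 3 was the highest of its group. The means were 756 ± 77.3 CPM in high glucose, against 238 ± 88.2 CPM in low glucose (SD, n = 3 per group). The edgeR fit gave a 3.22-fold difference, with a log2 fold change of 1.69 (SE 0.28). The raw counts differed 28.03-fold.

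**Figure D1:**
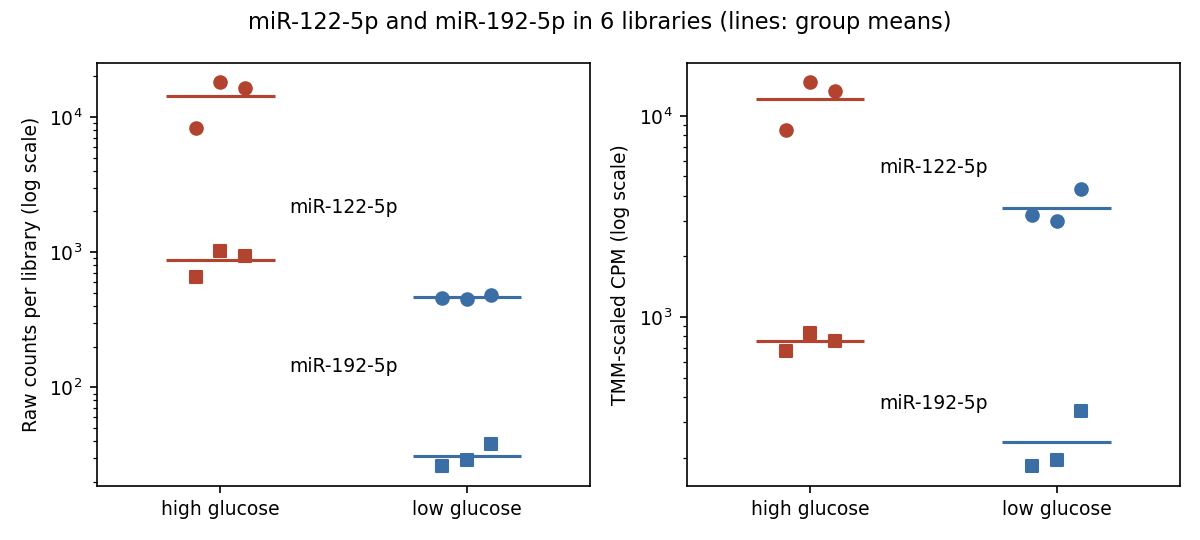
Raw counts (left) and TMM-scaled CPM (right) of miR-122-5p (circles) and miR-192-5p (squares), both on log axes, with 1 point for each library and a line at each group mean. In both panels the 3 high glucose libraries lie above the 3 low glucose libraries for each miRNA, by 30.6-fold and 28.03-fold in raw counts and by 3.48-fold and 3.22-fold in fitted CPM.

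These rises were not extreme for the data set. Ordered by fold change among 297 tested arms, miR-122-5p came 96th and miR-192-5p 99th. Both tested members were called higher by edgeR's quasi-likelihood test at an adjusted p of 0.05, where 41.1% of all tested arms were called higher, 22.6% lower and 63.6% in either direction. Since the members were chosen with this contrast known, nothing is read from that count. The median over all tested arms was 0.68 on the log2 scale with TMM and 0.12 with upper quartile scaling, and under upper quartile scaling the members' log2 fold changes were 1.24 for miR-122-5p and 1.12 for miR-192-5p.

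The ratio of miR-122-5p to miR-192-5p counts, which needs no scaling, overlapped between the groups. It was 12.6, 17.7 and 17.5 in high glucose, against 17.7, 15.4 and 12.7 in low glucose. Both groups held values near 12.7 and near 17.7. The means, 15.9 ± 2.90 in high glucose against 15.3 ± 2.53 in low glucose, differed by 0.63, less than the SD within either group (n = 3 per group). The ratio is made of the counts by which the miRNAs were chosen and is given without a test.

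miR-194 was close to the limit of what the files list, and neither of its arms passed the filter on low counts. Of miR-194-5p, which both copies of the hairpin encode, high glucose replicates 1 and 2 held 5 and 3 reads and low glucose replicate 3 held 4. The other 3 libraries listed none. High glucose replicate 2 also held 15 reads of ccagtggagctgctgttacttt, from the 3p side of the miR-194-1 hairpin, and no other library listed a 3p sequence. Its seed is CAGTGGA, while that of the RefSeq miR-194-3p, which comes from miR-194-2, is CAGUGGG. The miR-192 hairpin, 100 bases from that of miR-194-2, gave 654 to 1018 counts per high glucose library, while miR-194-5p gave at most 5 reads in the same libraries.

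The 3p arms of miR-122 and miR-192 were not listed in any library, so the share of the minor arm was 0 throughout. As the files list only sequences with at least 2 reads, this sets no limit on rarer ones. miR-215-5p, the seed partner of miR-192-5p, was listed with 10, 0 and 29 counts in high glucose, against 2, 3 and 0 in low glucose. Reads with the seed UGACCUA were therefore mostly miR-192-5p. No sequence of a member was listed under any other miRNA.

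The composition of miR-122-5p differed sharply between the groups, with the 21 nt form prevailing in high glucose and longer forms common in low glucose. The 21 nt form made up 83.1%, 87.2% and 87.3% of the miR-122-5p counts in high glucose, against 45.8%, 52.2% and 48.8% in low glucose. The 95% exact binomial intervals, which cover counting error only, were within 82.3% to 87.8% for the high glucose libraries and within 41.1% to 56.9% for the low glucose libraries. The groups lay far apart, and the means were 85.9% ± 2.40 in high glucose, against 48.9% ± 3.23 in low glucose (SD, n = 3 per group). The difference of 36.96 percentage points gave an exact two-sided permutation p = 0.1, the smallest that 3 against 3 libraries allow. Adjusted over the 16 such tests of member forms it was 0.145. Of these 16, the tests of other single forms, longer or shorter reads, shifted starts and mean length were not fixed in advance. The adjusted value depends on how many were added. Depth also differed between the groups, and with each library's miR-122-5p counts thinned to those of the smallest library the difference was 38.7 percentage points.

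The 22 nt form, which equals the RefSeq sequence, made up 1.92%, 1.94% and 1.46% of the counts in high glucose, against 16.9%, 17.9% and 18.5% in low glucose. The A-ended 23 nt form made up 1.65%, 0.942% and 1.097% in high glucose, against 22.3%, 20.5% and 20.1% in low glucose. For both forms every high glucose library lay far below every low glucose library. All forms longer than 21 nt together held 4.70% ± 1.45 of the counts in high glucose, against 45.1% ± 2.77 in low glucose (SD, n = 3 per group; exact permutation p = 0.1). The mean length was 20.97, 20.97 and 20.98 nt in high glucose, against 21.7, 21.6 and 21.7 nt in low glucose.

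**Figure D2:**
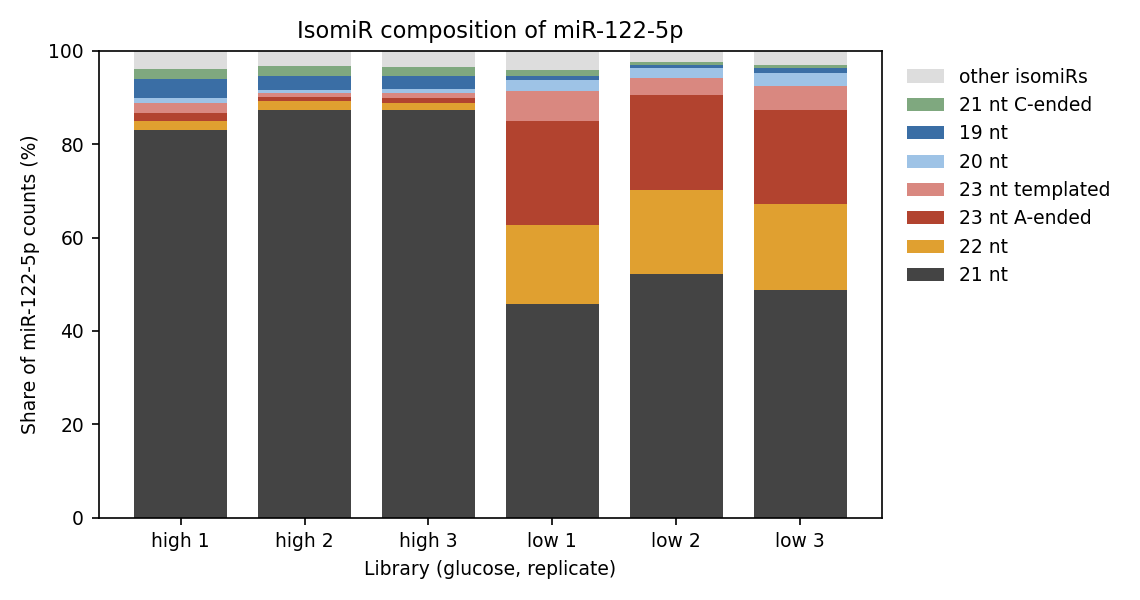
Stacked shares (%) of the miR-122-5p counts by isomiR in each library, high glucose libraries on the left and low glucose libraries on the right. The 21 nt form fills 83.1% to 87.3% of the high glucose bars and 45.8% to 52.2% of the low glucose bars, where the 22 nt and A-ended 23 nt forms take up most of the rest.

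In a fit across all isomiRs, each isomiR's counts were set against those of its own arm in the same library. This was edgeR's quasi-likelihood test over 1393 isomiRs of arms with at least 20 counts in every library, with Benjamini-Hochberg adjusted p, and it was chosen after the composition had been seen. Of the 71 isomiRs of miR-122-5p, 11 passed the filter on low counts, and 3 of these had a higher and 5 a lower share in high glucose. Among all isomiRs tested, 10.2% had a higher and 15.1% a lower share, 25.3% in all. Shares within an arm sum to a whole, so these calls are not independent of each other.

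The 21 nt form rose in share by a log2 change of 0.81 (SE 0.073, edgeR adjusted p = 0.000239). The 22 nt form fell by 3.32 on the log2 scale (SE 0.18, edgeR adjusted p = 2.47e-05) and the A-ended 23 nt form fell by 4.11 (SE 0.25, edgeR adjusted p = 4.66e-05). The templated 23 nt form, at 1.32% ± 0.769 in high glucose, against 5.02% ± 1.37 in low glucose (SD, n = 3 per group), also fell (edgeR adjusted p = 0.018). That call was lost on leaving out low glucose replicate 1, 2 or 3 in turn, with adjusted p from 0.0653 to 0.131. Forms shorter than 21 nt went both ways. The 19 nt form rose, at 3.34% ± 0.747 in high glucose, against 0.858% ± 0.184 in low glucose (SD, n = 3 per group; edgeR adjusted p = 0.00447). The 20 nt form fell, at 0.867% ± 0.144 in high glucose, against 2.36% ± 0.345 in low glucose (edgeR adjusted p = 0.0124), a call lost without low glucose replicate 1 (adjusted p = 0.0718) or 3 (adjusted p = 0.0627). These rest on 3 to 5 counts of the 19 nt form and 9 to 13 of the 20 nt form in each low glucose library.

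Forms with a changed last base also differed. A 21 nt form with T21A had 3, 15 and 6 counts in high glucose, against 3, 6 and 7 in low glucose, and its share fell by 4.38 on the log2 scale (SE 0.75, edgeR adjusted p = 0.0043). A 21 nt form with T21C made up 1.96%, 2.16% and 1.75% in high glucose, against 1.30%, 0.670% and 0.622% in low glucose. It was the third form with a higher share (edgeR adjusted p = 0.0454), which did not pass without high glucose replicate 2 (adjusted p = 0.0689) and without each of low glucose replicates 1, 2 and 3 (adjusted p = 0.0575, 0.199 and 0.162).

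The scaled levels of the single forms of miR-122-5p differed between the groups in both directions. The 21 nt form stood at 10506 ± 3048 CPM in high glucose, against 1710.2 ± 341 CPM in low glucose (SD, n = 3 per group), a ratio of 6.14, larger than that of the arm as a whole. The 22 nt form stood at 163, 286 and 195 CPM in high glucose, against 542, 535 and 795 CPM in low glucose. The A-ended form stood at 140.5, 138.5 and 146 CPM in high glucose, against 716, 615 and 867 CPM in low glucose. Both longer forms were thus below the low glucose libraries in every high glucose library, by 2.91-fold and 5.17-fold in their means, while their raw counts were higher in high glucose. The raw counts of the A-ended form were 136, 170 and 179 in high glucose, against 103, 92 and 97 in low glucose, the closest between the groups among the main forms. These levels come from the contrast with which the miRNA was chosen and are given without a test.

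**Figure D3:**
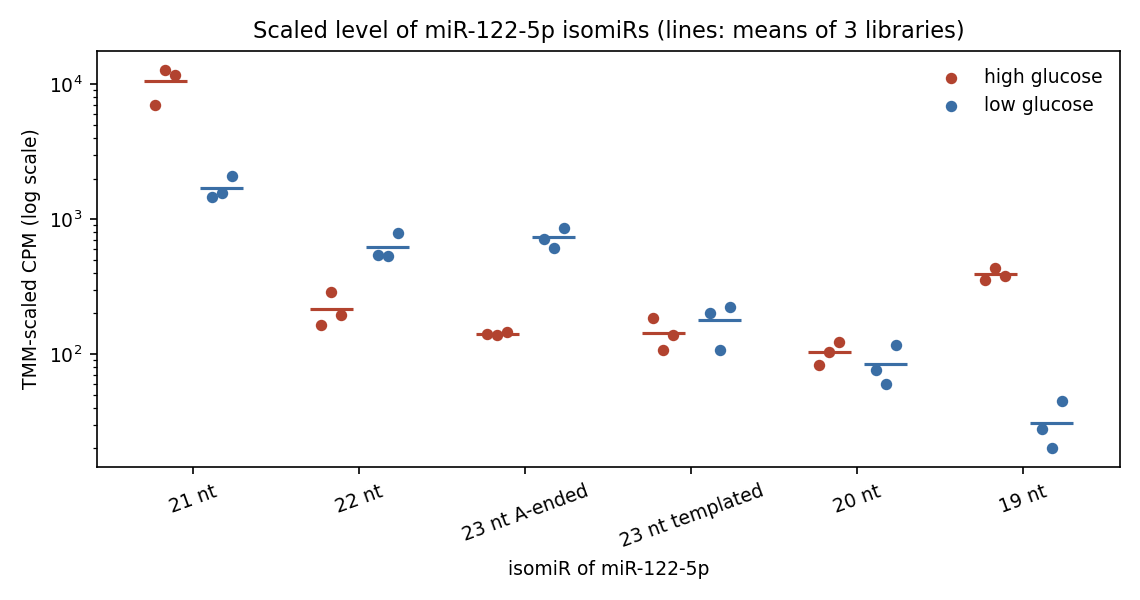
TMM-scaled CPM on a log axis of the 6 main isomiRs of miR-122-5p, with 1 point for each library and a line at each group mean, high glucose left of low glucose in each pair. The 21 nt and 19 nt forms lie higher in high glucose, the 22 nt and A-ended 23 nt forms lie lower, and the templated 23 nt and 20 nt forms overlap between the groups.

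The 5′ end of miR-122-5p hardly varied. Reads beginning at position 15 of the hairpin made up 99.7%, 99.5% and 99.7% of the counts in high glucose, against 100% in each low glucose library. A form beginning 1 base later had 22, 85 and 36 counts in high glucose and was listed at 0 in low glucose. At 0.221% to 0.471% of the arm, that form would give about as many reads in a low glucose library as the minimum for listing a sequence, so the difference was not detectable at this depth. Reads with any mismatch, insertion or deletion made up 6.09% ± 0.473 in high glucose, against 25.1% ± 2.31 in low glucose (SD, n = 3 per group; exact permutation p = 0.1), most of the low glucose share being the A-ended 23 nt form.

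The composition of miR-192-5p was spread over more forms. Its groups overlapped in the share of the most abundant form and lay apart in the share of the 22 nt form. With all counts kept they also lay apart in mean length. The T-ended 23 nt form was the most abundant by mean share. It made up 32.6%, 30.1% and 30.8% of the miR-192-5p counts in high glucose, against 30.8%, 24.1% and 50% in low glucose. The groups overlapped, and low glucose replicate 3, with 19 of 38 counts, had a 95% exact binomial interval of 33.4% to 66.6%. The means were 31.1% ± 1.29 in high glucose, against 34.97% ± 13.4 in low glucose (SD, n = 3 per group; exact permutation p = 0.9). Without low glucose replicate 3 the difference turned to 3.69 percentage points, higher in high glucose. The 21 nt form made up 15.9%, 16.3% and 17.3% in high glucose, against 34.6%, 34.5% and 13.2% in low glucose. It thus stood above the T-ended form in low glucose replicates 1 and 2. Its low glucose shares rest on 9, 10 and 5 counts, and its share was not called (edgeR adjusted p = 0.251).

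The 22 nt form of miR-192-5p made up 24.9%, 28.6% and 16.3% of the counts in high glucose, against 11.5%, 6.90% and 10.5% in low glucose. The groups did not overlap, but the low glucose values rest on 3, 2 and 4 counts. The log2 change of its share was 1.26 (SE 0.44), and it missed the threshold (edgeR adjusted p = 0.0685) except without high glucose replicate 3 (adjusted p = 0.026). Of the 26 isomiRs of miR-192-5p, 6 passed the filter on low counts, and 0 were called in the edgeR fit across all isomiRs. Only the 22 nt form of these 6 had an unadjusted p under 0.05, namely 0.0199.

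The shifted start changes the seed of miR-192-5p from TGACCTA to GACCTAT. Reads with that start made up 8.56%, 10.5% and 17.7% of the miR-192-5p counts in high glucose, against 15.4%, 24.1% and 15.8% in low glucose. The groups overlapped, with means of 12.3% ± 4.84 in high glucose, against 18.4% ± 4.94 in low glucose (SD, n = 3 per group; exact permutation p = 0.3). Without low glucose replicate 2 the difference was -3.31 percentage points in place of -6.16. The low glucose shares rest on 4, 7 and 6 counts, with 95% exact binomial intervals from 4.36% to 43.5%. miR-192-5p thus carried a second seed in a larger share than miR-122-5p, whose reads with another start never passed 0.482% of its arm.

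**Figure D4:**
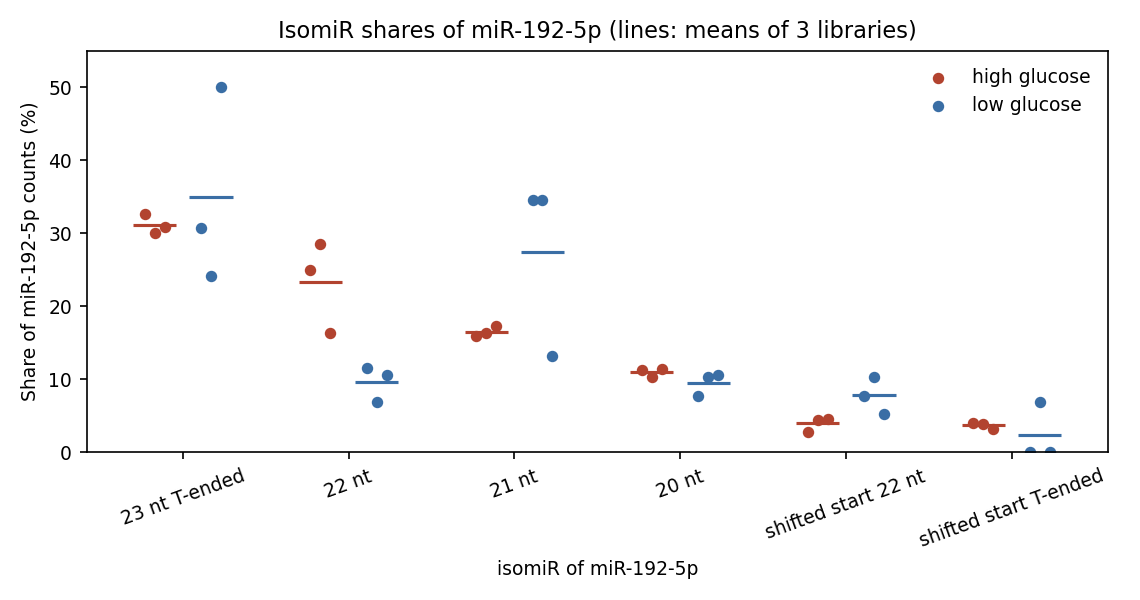
Shares (%) of the miR-192-5p counts held by 6 isomiRs, with 1 point for each library and a line at each group mean, high glucose left of low glucose in each pair. The 22 nt form separates the groups, at 16.3% to 28.6% in high glucose, against 6.90% to 11.5% in low glucose, and the T-ended 23 nt form overlaps between them, with low glucose replicate 3 highest at 50%.

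Changes in composition were common in these libraries, and that of miR-122-5p was among the largest. Of 115 arms with at least 20 counts in every library, 50.4% had separate groups in the share of their most abundant isomiR and 49.6% in mean length. The share difference of miR-122-5p was second in size among these arms, after a fall of 41.4 percentage points in miR-503-5p, while the median difference over all 115 was 1.08 percentage points. Its mean length was 0.71 nt shorter in high glucose, sixth among the 115 in that direction and 4th of the 99 annotated arms, against a median of -0.069 nt. With sequences without mismatch only, which leaves out the A-ended form, its difference was -0.37 nt. miR-192-5p was 0.26 nt longer in high glucose, with separate groups (exact permutation p = 0.1). With its counts thinned to the smallest library it was 0.28 nt longer (exact permutation p = 0.2).

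**Figure D5:**
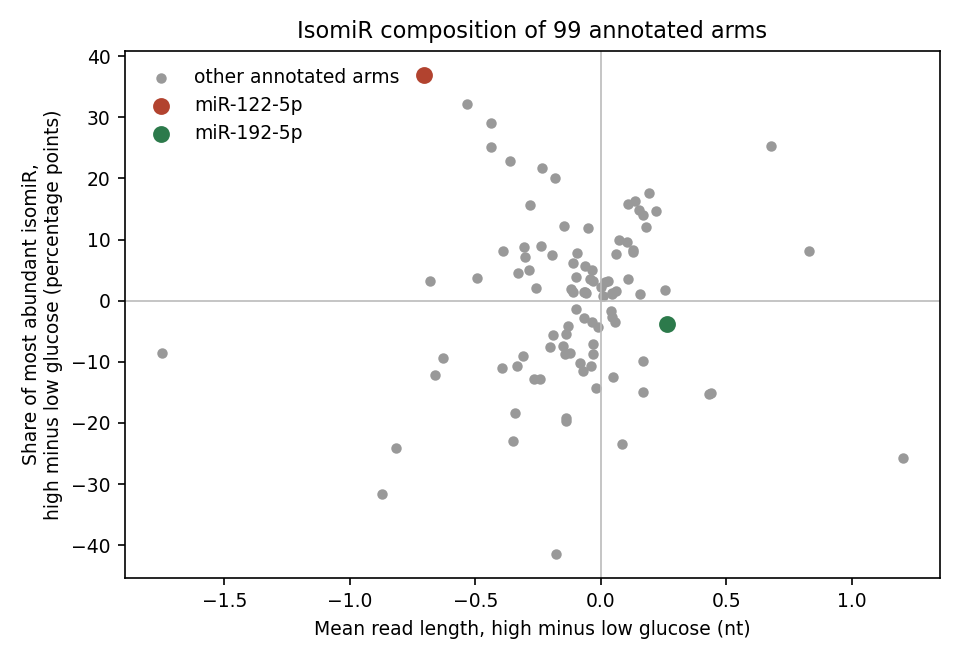
Difference between high and low glucose in mean read length (nt, horizontal) and in the share of the most abundant isomiR (percentage points, vertical) for the 99 annotated arms with at least 20 counts in every library. miR-122-5p lies at the upper left, at -0.71 nt and 36.96 percentage points, and miR-192-5p lies near the centre at 0.26 nt and -3.83 percentage points.

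A last base that mismatches the hairpin as A was set apart in the same way for all 115 arms. In miR-122-5p it was carried by 1.43% ± 0.365 of the counts in high glucose, against 22.7% ± 1.03 in low glucose (SD, n = 3 per group). This was the largest fall of any of the 115 arms, and the median difference was 0. Next came miR-486-5p, at 15.8% ± 1.51 in high glucose, against 28.8% ± 2.68 in low glucose. The measure was not fixed in advance. For a last base that mismatches as T, the largest fall was in miR-676-3p, at 13.2% ± 3.48 in high glucose, against 36.3% ± 4.84 in low glucose. For miR-192-5p a last base that mismatches as T was carried by 36.3% ± 1.32 in high glucose, against 37.3% ± 11.03 in low glucose. That is the fifth highest level among the 99 annotated arms, whereas the medians over all 115 were 2.21% in high glucose, against 1.44% in low glucose. No A-ended mismatch was listed for miR-192-5p in low glucose, and 4.73% ± 1.45 of its counts carried one in high glucose. The low glucose libraries held 26, 29 and 38 counts of this arm. A share of that size would there give about the minimum for listing a sequence, so a difference was not detectable at this depth.

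The profiles most like those of the members were found by the root mean square difference of log2 CPM over the 6 libraries after each arm's mean was subtracted. The 2 tested members differed from each other by 0.21 on this scale, where the median annotated arm differed from them by 1.20 and 1.17. Closest to miR-122-5p were miR-3473-3p at 0.25, miR-10a-5p at 0.26 and miR-125b-3p at 0.27. Closest to miR-192-5p were miR-3473-3p at 0.15, miR-676-3p at 0.22 and miR-30d-5p at 0.24. The measure largely follows the difference between the groups, which all of these share.

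Markers of other tissues were counted beside the members, by hairpin, with no test of a list as a whole. In the hepatocyte list, made up of the 3 members and miR-215, the 2 arms that passed the filter are miR-122-5p and miR-192-5p themselves, so their calls add nothing to those given above. The list's summed level was 9182 to 15550 CPM in high glucose, against 3210 to 4683 CPM in low glucose. All 3 tested erythroid arms were called lower by edgeR, where 22.6% of all tested arms were, and the list's sum was 923 to 1052 CPM in high glucose, against 3745 to 6640 CPM in low glucose. Its most abundant arm, miR-451-5p, stood at 315 ± 49.2 CPM in high glucose, against 2694 ± 1083 CPM in low glucose (SD, n = 3 per group). The neuronal list, led by miR-128-3p, had 2 of 4 tested arms higher and 1 lower, near the 41.1% and 22.6% over all tested arms, and miR-124, its defining member, was not listed. Its sum was 16650 to 22870 CPM in high glucose, against 7093 to 9259 CPM in low glucose.

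The other lists were low. Of the epithelial miRNAs, miR-141, miR-429 and miR-205 were not listed, and 0 of 1 tested arm was called by edgeR. The list's sum was 9.30 to 44.9 CPM in high glucose, against 13.9 to 35.8 CPM in low glucose. Its most abundant arm was miR-375-3p, at 20.8 ± 19.9 CPM in high glucose, against 12.6 ± 11.01 CPM in low glucose (SD, n = 3 per group). The muscle sum, led by miR-499-5p, was 91.9 to 130.4 CPM in high glucose, against 134 to 328 CPM in low glucose, and its 1 tested arm was called lower, as was the 1 tested arm of the retinal list, against 22.6% of all tested arms. The leukocyte sum, led by miR-155-5p, was 49.8 to 249 CPM in high glucose, against 104 to 161 CPM in low glucose, and the retinal sum, led by miR-183-5p, was 17.1 to 65.1 CPM in high glucose, against 34.7 to 107 CPM in low glucose. The endothelial and pancreatic sums, led by miR-126a-3p and miR-217-5p, did not pass 66.8 CPM in high glucose, against 100.3 CPM in low glucose. The median log2 fold change was 1.74 in the hepatocyte list, -1.65 in the erythroid list and 1.61 in the neuronal list, against 0.68 over all tested arms. Whether RNA of any of these tissues plays a part in the members' levels was not tested.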

How the data were processed

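Group and replicate number were taken from the titles of the 6 libraries. Each deposited file gives unnormalized read counts per distinct sequence and hairpin, per the file headers, along with position and mismatches. Novoalign 3.02.12 and cutadapt 1.9.3 appear in the submitters' processing notes, with no role given, and the genome build is not given in the sources used here. The deposited sequences are 16 to 40 nt long with at least 2 reads, so rarer forms are missing, more so in the shallower low glucose libraries. Reads of a sequence in several hairpins are divided among them and rounded, so miR-194-5p is given in whole reads. All miR-122 sequences carry the alignment status R, as do sequences listed under several hairpins, although they are listed under no other hairpin, and the meaning of R is not given in the sources used here.

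Hairpin copies were joined, and the centre of a sequence, before or after the hairpin's midpoint, decided its arm. An isomiR is defined by its ends in the hairpin and its mismatches, so reads with an uncalled base, at most 0.446% of miR-122-5p, count with their form. edgeR 4.0.16 in R 4.3.3 fitted all arms with TMM scaling, filterByExpr (minimum count 10) and Benjamini-Hochberg adjustment at 0.05. A standard error is the log2 fold change over the square root of F. Shares were tested by two-sided exact permutation (10 splits, no p under 0.1) and in an edgeR fit with the log counts of the arm as offset. Alternatives used limma 3.58.1, DESeq2 1.42.0 and other scalings, filters and sequences. Python 3.11.15 with pandas 2.3.3, NumPy 2.4.6, SciPy 1.17.1 and matplotlib 3.10.9 was used. Both fits were also run on simulated counts with known changes. Their spread was set to a fixed value, not matched to these libraries, so that run does not show how the fits perform here. The members and lists were chosen with earlier results of these data known. The named arms are all member arms, the 3 annotated arms most like each tested member, miR-215 and the most abundant arm of each marker list. miR-503-5p, miR-486-5p, miR-125a-5p, miR-27b-3p and the forms of each arm were chosen after their values were seen. No 2 replicates were alike within sampling noise (chi-square over its degrees of freedom was 5.31 to 142). Separate cultures are not stated, so the p-values reflect only how these libraries vary, possibly for technical reasons.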

Additional observations from a re-analysis of the deposited data

How the results depend on the processing

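Under all 19 alternatives the log2 fold changes of miR-122-5p and miR-192-5p stayed above 0, from 1.24 to 2.62 and from 1.12 to 1.98. For miR-122-5p, counting only the 21 nt form gave 2.62, and only sequences without mismatch gave 2.20. Without each library in turn they ranged from 1.58 to 2.02 and from 1.56 to 1.98. With the replicate block they were 1.78 and 1.71. Deviations of same-numbered libraries from their group means correlated at -0.028 to 0.044, which shows no pairing by number. With 3 libraries per group, these values cannot exclude a pairing. The block gave 105 arms higher and 58 lower of 297 tested. Arms called higher fell to 62 after thinning to the smallest library and to 78 with annotated hairpins only, and ranged from 79 to 117 without each library. Arms called lower ranged from 41 (of 388 tested) to 59 (of 207 tested) without each library. Of the calls, 64.5% were higher, against 49.5% with upper quartile scaling (91 higher and 93 lower), 51.2% when thinned, and 74.05% without low glucose replicate 2.

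The share difference of the 21 nt form of miR-122-5p was 38.7 percentage points with the arm's counts thinned to the smallest library, 26.2 with sequences without mismatch only, and 35.4 to 38.6 without each library. In the fit of shares with the replicate block, the T21C form lost its call (adjusted p = 0.0876). IsomiRs of miR-122-5p with a lower share numbered 3 to 4 without each library and those with a higher share 2 to 3. For miR-192-5p, 0 to 1 had a higher share. Without low glucose replicate 3, 3 differences of miR-192-5p turned in sign: the share of its most abundant isomiR (range without each library -9.24 to 3.69 percentage points), that of its most common 3′ end (-7.66 to 0.744 percentage points) and the fitted log2 change of its T-ended form (-0.41 to 0.19). The cause was not tested. The alternative of 50 or more counts in an arm gave no value for miR-192-5p, whose low glucose libraries hold 26 to 38 counts, and depth limits all of its shares there.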

Other observations

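Among annotated arms, the 3 with the largest differences in the share of their most abundant isomiR besides miR-122-5p went in both directions. miR-503-5p had 50%, 32.6% and 42.1% in high glucose, against 80.9%, 86.96% and 81.1% in low glucose. miR-125a-5p had 71.5%, 79.2% and 69.3% in high glucose, against 42.5%, 41.7% and 39.5% in low glucose, with a mean length 0.53 nt shorter in high glucose. miR-27b-3p had 23.2%, 17.9% and 23.7% in high glucose, against 55.1%, 56.5% and 48.0% in low glucose. In miR-486-5p the last base mismatched the hairpin as T in 21.6% ± 2.16 of the counts in high glucose, against 6.55% ± 2.57 in low glucose (SD, n = 3 per group), the opposite direction to its A-ended reads.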
